A study of Mus musculus with 4 samples.

Results

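The 10 genes described here encode the receptors Notch1 and Notch2, the ligands Dll1, Dll4 and Jag1, the receptor-modifying enzyme Lfng, the pathway inhibitor Numb, the DNA-binding factor Rbpj and the coactivators Maml1 and Maml2. They are 10 of 21631 protein-coding genes placed on chromosomes 1 to 19 and X, and all 10 were found in the RefSeq gene table. A peak of SOX2 chromatin immunoprecipitation and sequencing (ChIP-seq) was counted for a gene when its centre lay inside the gene or within 50 kb of it. This gave 44 of 17730 peaks in IP library 1, 49 of 17628 in IP library 2 and 42 of 15891 in IP library 3. All 3 immunoprecipitated (IP) libraries and the single input library, the unselected DNA, came from cortex of uninjured, genetically unaltered C57BL/6 mice, male and 2 months of age, per the labels, and the IP libraries were made with a rabbit antibody to SOX2. A further label naming SOX2 as transduced, present on the input too (4 samples), does not match that tissue and was not used. Nothing in the labels ties the IP libraries to different animals, and their spread may be technical only.

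Notch receptors are cut when a Delta or Jagged ligand on a neighbouring cell binds them, and the freed intracellular domain enters the nucleus. There it joins Rbpj, which sits on DNA, and a Mastermind-like coactivator (Maml), and target genes such as those of the Hes family are switched on. In the forebrain the pathway is known for keeping neural stem cells undifferentiated and for favouring astrocyte over neuron formation, and SOX2 is a transcription factor of the same stem cells and of astrocytes. The cortex holds many cell types, so strong binding in few cells and weak binding in many cells cannot be told apart here, and a peak near a gene does not show that SOX2 acts on that gene.

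Overlapping peaks were merged, and a merged region that held a peak of each of the 3 IP libraries is called reproducible below. Strength is given in normalized tags, the authors' count of sequenced reads in a peak, expressed per 10000000 reads. The caller's own threshold was 14, 13 and 16 tags in IP libraries 1, 2 and 3, which is 3.85, 4.00 and 3.82 normalized tags, and 1.34%, 2.44% and 5.54% of the deposited peaks are listed with fewer. A library without a peak therefore has no value at that place, and its level there is unknown.

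Peaks shared bases with the promoter window (250 bases before to 50 after a listed transcription start) of 6 of the 10 genes. The sequence before the start is shown for 4 of them because peaks of at least 2 libraries reach into it. A region of all 3 libraries shared bases with the 300-base promoter window of 2 of 10 genes, Jag1 and Maml1, against 8.39% of protein-coding genes with such a window. A peak of any library did so in 6 of 10, against 22.4%. The 4 sequences are the 250 bases before a listed start, 5′ to 3′ on the gene's strand, from the RefSeq promoter table (GRCm38.p6, the coordinates of mm10). Capitals mark the bases inside a merged region, which lie under a peak of any library. The peaks of different libraries coincide only in part, so not every capital lies under a peak of each library named. The Jag1 stretch is chr2:137116521-137116770 on the minus strand, with 23 bases inside a merged region that holds peaks of all 3 libraries. The Maml1 stretch is chr11:50292337-50292586 on the minus strand, with 83 bases inside a merged region that holds peaks of all 3 libraries. The Notch2 stretch is chr3:98013288-98013537 on the plus strand, with 159 bases inside a merged region of peaks of IP libraries 1 and 3. The Rbpj stretch is chr5:53590096-53590345 on the plus strand, with 95 bases inside a merged region of peaks of IP libraries 1 and 2.
Jag1: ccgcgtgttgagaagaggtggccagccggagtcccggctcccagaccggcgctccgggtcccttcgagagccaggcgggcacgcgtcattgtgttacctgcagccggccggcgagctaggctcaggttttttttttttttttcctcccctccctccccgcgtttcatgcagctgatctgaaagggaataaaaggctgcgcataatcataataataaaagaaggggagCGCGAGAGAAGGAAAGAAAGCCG
Maml1: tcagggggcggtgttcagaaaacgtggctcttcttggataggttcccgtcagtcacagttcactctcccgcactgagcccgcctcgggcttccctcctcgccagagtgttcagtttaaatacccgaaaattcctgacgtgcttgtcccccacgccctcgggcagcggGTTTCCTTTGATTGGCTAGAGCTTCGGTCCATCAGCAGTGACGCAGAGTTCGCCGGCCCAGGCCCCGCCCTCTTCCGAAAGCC
Notch2: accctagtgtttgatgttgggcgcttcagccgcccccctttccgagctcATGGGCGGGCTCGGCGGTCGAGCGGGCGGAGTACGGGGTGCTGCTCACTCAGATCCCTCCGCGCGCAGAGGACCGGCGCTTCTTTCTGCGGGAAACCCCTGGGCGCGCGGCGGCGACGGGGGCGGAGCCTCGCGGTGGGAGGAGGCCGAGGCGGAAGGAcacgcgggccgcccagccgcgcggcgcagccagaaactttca
Rbpj: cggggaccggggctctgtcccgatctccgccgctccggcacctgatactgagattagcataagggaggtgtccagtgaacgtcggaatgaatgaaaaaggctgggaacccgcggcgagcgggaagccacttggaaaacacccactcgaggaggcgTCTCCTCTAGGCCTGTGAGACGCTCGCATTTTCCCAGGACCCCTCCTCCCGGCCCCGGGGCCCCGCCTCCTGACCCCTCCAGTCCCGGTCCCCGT

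Short words of known factors were searched on both strands, and none lay under the peaks in the 4 stretches shown. The SOX core ACAATG was found in 3 of the 15 stretches of 250 bases listed for the 10 genes, those of Jag1, Numb and Dll1, against 8.84% of 21045 stretches of protein-coding genes. In Jag1 it starts at base 87 of the printed stretch, outside the capitals. The related ACAAAG was found in 4 of 15, those of Lfng, Maml2, Numb and Dll1, against 15.0%. The Rbpj core GTGGGAA was found in 1 of 15, that of Lfng, against 5.31%. A missing word says only that these letters are not in that stretch. Most peaks at these genes lie away from the starts, and their sequence was not used here.

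SOX2 peaks were found at all 10 genes, and 9 of the 10 had at least 1 reproducible region, the exception being Rbpj. By the same rule 46.6% of protein-coding genes had a reproducible region. With regions of at least 2 libraries 10 of 10 genes had one, against 58.3% of all genes, and with any peak 10 of 10, against 71.8%. Reproducible regions lay inside 7 of the 10 genes, against 14.8% of all genes. In 8 of the 10, against 22.9%, the gene was the nearest protein-coding gene to at least 1 such region. No test across the 10 genes was made, and the genes were chosen with earlier results of these data known.

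The peaks merged into 60 regions of the series' 27083, and 32 of the series' 9334 reproducible regions were among them. The share found in all 3 libraries was 53.3% at these genes, against 34.5% of all merged regions. Of the rest, 11 held peaks of 2 libraries and 17 of 1 library. Of the 32 reproducible regions, 22 lay inside the gene, 7 upstream and 3 downstream of it, and 9 lay within 5 kb of a listed start of the gene. Of all 9334 reproducible regions, 4965 lay inside some protein-coding gene, so a place inside a gene is common. For 14 of the 32 the closest listed start was that of another gene, non-coding genes included. Another protein-coding gene was nearer to 8 of the 32, and those are named below.

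**Figure D1:**
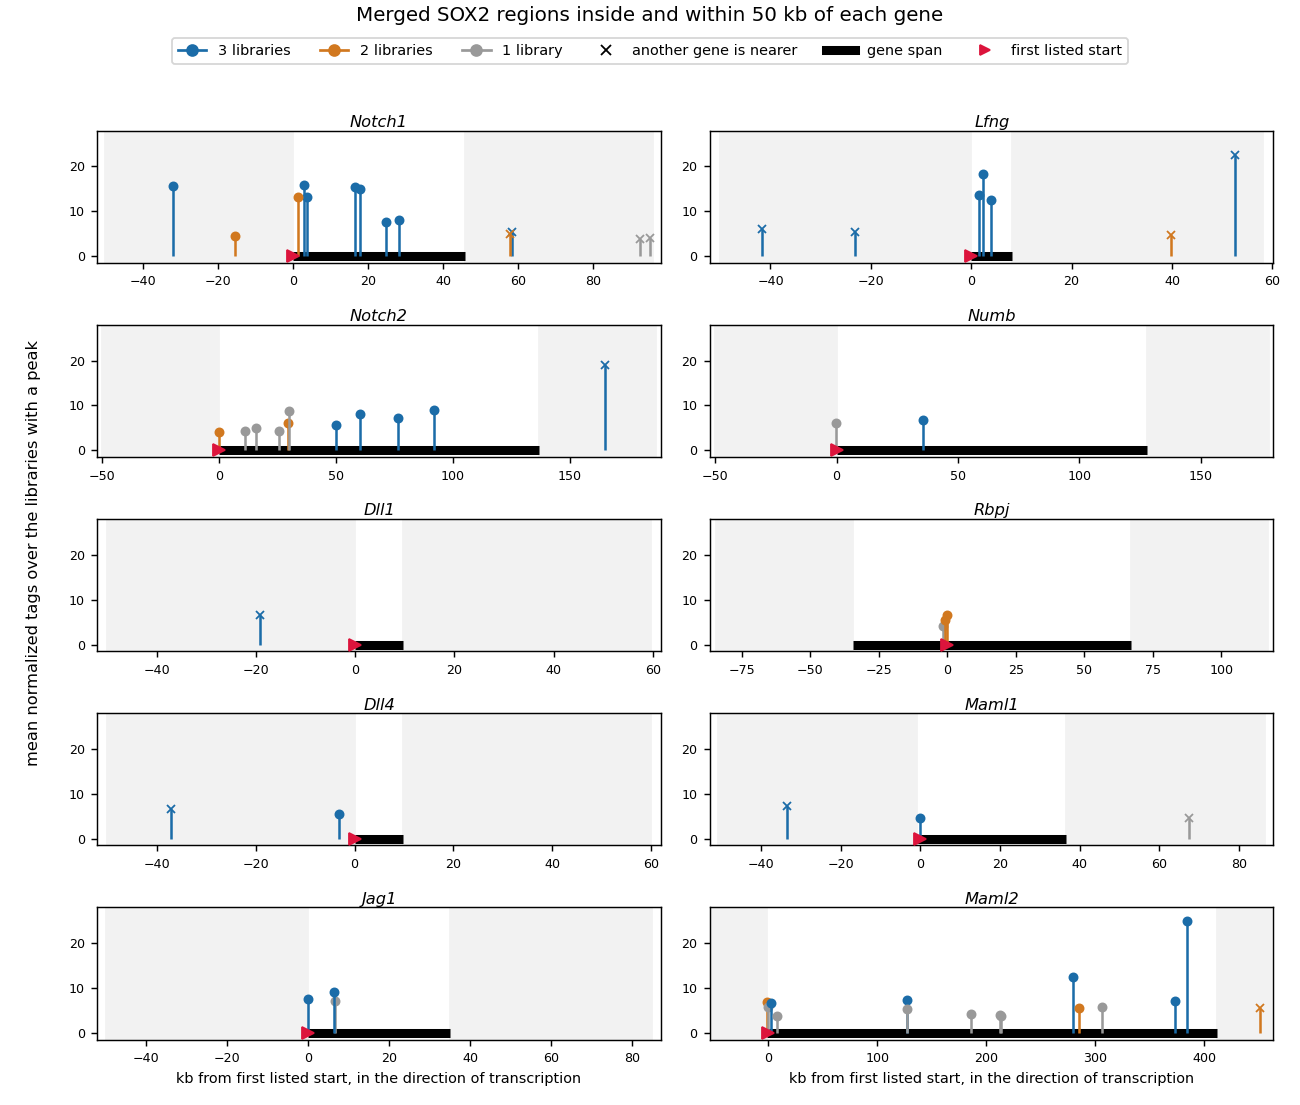
Position and strength of all 60 merged regions at the 10 genes. The x axis is the distance in kb from the first listed start in the direction of transcription, the y axis the mean normalized tags over the libraries with a peak, the black bar the gene span, the shaded parts 50 kb on each side, the colour the number of libraries, and a cross a region that is nearer to another gene. The 3 regions inside Lfng lie within 3.98 kb of its start, regions inside Maml2 lie from near its first listed start to 384 kb after it, and Dll1 has none inside.

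Notch1, the main receptor of neural stem cells (chr2:26457902-26503822, minus strand), carried the most reproducible regions of the 10 genes, though Maml2 had more merged regions (15 against 13). It had 8 reproducible regions, 6 of them inside the gene, and only 0.231% of protein-coding genes had as many or more within 50 kb. The 6 inside lay from 2.97 to 28.2 kb after the start. The strongest, chr2:26500759-26500937, held 20.1, 13.8 and 13.9 normalized tags in the 3 libraries in turn (15.9 ± 3.61, mean and SD, n = 3, as for the values below). IP library 1 was the high one. Its exact 95% Poisson interval of 15.7 to 25.3, which covers counting error only, overlapped those of the other libraries, 10.1 to 18.5 and 10.5 to 17.9. Whether the libraries differ by more than counting error was not tested, and overlap of the intervals does not settle it. A neighbour 0.697 kb away held 11.6, 15.4 and 12.7.

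Further into Notch1 a pair of regions 1.46 kb apart gave nearly the same value in every library. The region chr2:26487285-26487470 held 15.4, 15.7 and 15.0 normalized tags (15.4 ± 0.351), and chr2:26485804-26486033 held 14.9, 15.4 and 14.3 (14.9 ± 0.551). The former was higher in every library, by less than 1 normalized tag, and both ranges overlap that of the strongest region. Weaker ones at 24.8 and 28.2 kb after the start held 7.53 ± 0.724 and 8.01 ± 1.82. They do not overlap the ranges of the stronger group, whose lowest value was 11.6.

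Outside Notch1 a strong region lay 31.9 kb upstream, chr2:26535661-26535848, with 18.4, 15.1 and 13.4 normalized tags (15.6 ± 2.54), and Notch1 was the nearest protein-coding gene. The non-coding gene Gm36171 was nearer, at 11.7 kb. The eighth region, 12.5 kb past the other end, lay inside Sec16a and 0.169 kb from a Sec16a start, with 5.29 ± 0.588. Close to the Notch1 start, 1.37 kb inside, the region chr2:26502377-26502531 had peaks in IP libraries 1 and 2 only. It held 9.63 and 16.9 normalized tags, at 6.35-fold and 11.2-fold over the input, and no peak in IP library 3. The input held 5.00 and 4.90 tags there, against 5.00, 4.90 and 5.00 at the strongest region. Candidate peaks lost to the comparison with the input made up 22.8% in IP library 3 and 15.5% and 14.8% in IP libraries 1 and 2, and the part of that step in the missing peak was not tested.

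Notch2, the receptor also made by many glial and non-neural cells (chr3:98013538-98150367, plus strand), had weaker regions inside the gene and its strongest one beyond it. The 4 reproducible regions inside lay 50.0 to 91.7 kb after the start and held 5.54 ± 0.525 to 8.92 ± 2.36 normalized tags. The strongest of them, chr3:98105172-98105374, held 11.6, 8.00 and 7.16. Past the gene's far end, 28.2 kb away, chr3:98178505-98178674 held 21.5, 19.1 and 16.2 (18.9 ± 2.65) at 70.7-fold, 62.9-fold and 107-fold over the input, where the input held 1 tag for IP libraries 1 and 2 and was at the authors' floor of 0.5 tags for IP library 3. In every library it was higher than each region inside Notch2, but Adam30, which encodes a testis protease, was nearer at 14.4 kb. The pseudogene Gm9771 was nearer still, at 11.2 kb.

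At the Notch2 start itself peaks were weak. The stretch printed above held 4.13 and 3.82 normalized tags in IP libraries 1 and 3 and no peak in IP library 2. Near 29.7 kb after the start IP libraries 2 and 3 shared a region of 6.77 and 5.25, while the peak of IP library 1, with 8.81, lay 13 bp beyond it. All 3 libraries had a peak there, but the merged region is not counted as reproducible because no bases were shared. The other Notch2 regions held a peak of 1 library each, of 4.31 to 4.92.

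The Delta ligand genes carried few reproducible regions and none inside the gene. Dll1, a Delta ligand of progenitor cells (chr17:15367354-15376932, minus strand), had a single region, chr17:15396069-15396229, 19.2 kb upstream. It held 9.36, 4.31 and 5.97 normalized tags (6.55 ± 2.57), and IP library 1 was the highest. The interval of IP library 1, 6.48 to 13.1, overlapped that of IP library 2, 2.36 to 7.23. Overlap does not settle whether these libraries differ by more than counting error, which was not tested. This region lay 0.053 kb from Fam120b and at the start of that gene, so by the nearest gene Dll1 had none.

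Dll4, a Delta ligand known from blood vessels (chr2:119325784-119335666, plus strand), had 2 reproducible regions and none inside. The one nearest to Dll4, chr2:119322494-119322711, lay 3.18 kb upstream and held 5.51, 5.85 and 5.49 normalized tags (5.62 ± 0.202), with all 3 libraries alike. It also lies inside Gm14207, a non-coding gene. The other, 37.1 kb upstream, held 8.26, 5.85 and 5.49 and lay 0.0415 kb from Vps18, a gene of endosome sorting.

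Jag1, a Jagged ligand also made by astrocytes and progenitors (chr2:137081451-137116520, minus strand), differed from the Delta genes in that both of its reproducible regions lay inside the gene, 6.33 kb after the start and at the start. The first, chr2:137110104-137110277, held 10.2, 8.31 and 9.07 normalized tags (9.19 ± 0.951). The second, chr2:137116377-137116543, centred 0.06 kb from the start printed above, held 5.51, 8.93 and 8.60 (7.68 ± 1.89). Their ranges overlap. Over the input they stood apart, with 11.2-fold, 4.56-fold and 9.96-fold at the former and 36.3-fold, 29.4-fold and 56.6-fold at the start. The single input held 3, 5.9 and 3 tags at the former. At the start it held 1 tag for IP library 2 and was at the authors' floor of 0.5 tags for IP libraries 1 and 3. The contrast in folds thus rests on few input tags of the same library.

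Lfng, a glycosyltransferase that changes which ligands a Notch receptor answers to (chr5:140607341-140615545, plus strand), held 3 reproducible regions, 1.49 to 3.98 kb after its start, in a gene of 8.21 kb. The strongest, chr5:140609602-140609784, lay 2.35 kb after the start and held 20.9, 20.3 and 13.9 normalized tags (18.4 ± 3.88). Its flanking regions at 1.49 and 3.98 kb held 16.5, 13.8 and 10.5 (13.6 ± 3.00) and 13.5, 14.8 and 9.07 (12.5 ± 3.00). IP library 3 was the lowest of the 3 libraries in each, and in every library the middle region was the highest. The input was at the authors' floor of 0.5 tags at the middle region in each library, so its folds of 138, 134 and 91.2 depend on that floor.

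Around Lfng 3 more reproducible regions were nearer to other genes. The strongest region within 50 kb, chr5:140659858-140660059, held 25.6, 23.4 and 18.6 normalized tags (22.5 ± 3.58). It lay 44.4 kb from Lfng but 2.59 kb from Iqce. Upstream of Lfng, 6.03 ± 1.93 was found inside Grifin and 5.35 ± 0.802 at 16.7 kb from it and 4.90 kb from the non-coding gene Gm30603. Without these, the middle region inside the gene stands as the strongest of Lfng.

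Numb, which blocks Notch signalling in dividing progenitors (chr12:83794034-83921942, minus strand), had 1 reproducible region in a gene of 128 kb. It lay 9.41 kb from the closest of its listed starts, chr12:83886105-83886343, with 6.33, 6.16 and 8.12 normalized tags (6.87 ± 1.09). IP library 1 alone had a peak near the first start, of 6.06. The median of all peaks was 6.06, 6.16 and 5.25 in the 3 libraries.

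Rbpj, the factor that carries Notch signals to DNA (chr5:53555779-53657445, plus strand), was the only gene of the 10 with no reproducible region. Its 3 merged regions lay inside the annotated span, up to 1.59 kb before the first listed start or on it, and no other protein-coding gene was within 100 kb of them. On the start, chr5:53590251-53590422 held 7.16 and 5.85 normalized tags in IP libraries 1 and 2. About 1.0 kb before it, chr5:53589233-53589456 held 6.46 and 4.30 in IP libraries 2 and 3. IP library 1 had a peak of 4.13 farther out. Each library thus had at least 1 peak before or on the Rbpj start, but no place had all 3. The values of 4.13 and 4.30 were close to the caller's threshold, while 7.16 in IP library 1 and 6.46 in IP library 2 were above the median peak of those libraries. The nearest reproducible region lay 152 kb from the gene, inside Tbc1d19.

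The coactivator genes differed from each other. Maml1 (chr11:50255634-50293131, minus strand) had a weak region on its start, chr11:50292215-50292419, shown in part above, with 4.95, 5.23 and 3.82 normalized tags (4.67 ± 0.746). Only 4.66% of all reproducible regions were as weak or weaker. Its other reproducible region, 32.6 kb away with 7.29 ± 1.03, lay 0.106 kb from Canx, which encodes a chaperone of the endoplasmic reticulum. The same region lies inside Gm46280, a non-coding gene.

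Maml2 (chr9:13296561-13709533, plus strand) carried the strongest region of the 10 genes. This region, chr9:13681750-13681925, held 28.1, 21.5 and 25.6 normalized tags (25.1 ± 3.33) at 30.8-fold, 23.7-fold and 28.1-fold over the input, and 98.6% of all reproducible regions were as weak or weaker. It lay deep in the gene, 384 kb after the first listed start and 19.4 kb after the second. The next, chr9:13577275-13577497, held 10.7, 15.1 and 11.5 (12.4 ± 2.34), below the strongest in every library. The other 3, at 2.10, 127 and 373 kb, held 6.64 ± 2.37 to 7.45 ± 0.535. Another 10 merged regions of Maml2 held peaks of 1 or 2 libraries, so 5 of 15 were reproducible.

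**Figure D2:**
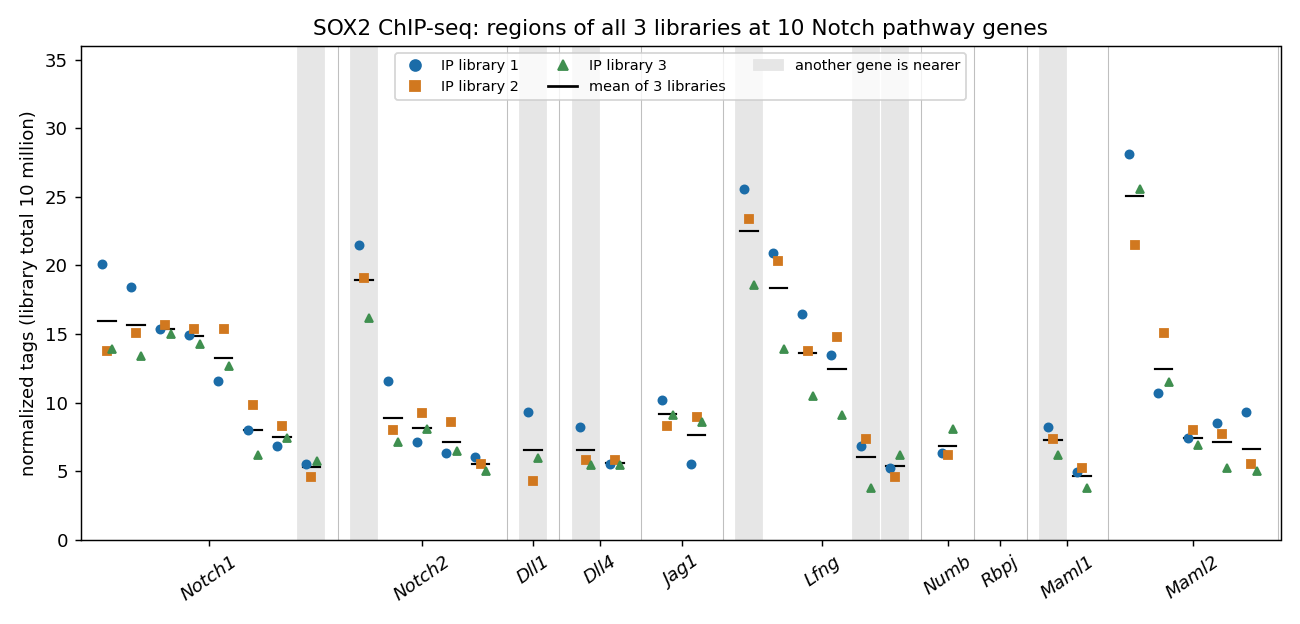
Normalized tags (y axis) of the 32 reproducible regions in each IP library, grouped by gene along the x axis and sorted by mean within a gene. Points are libraries, black lines means (n = 3), and grey shading marks regions nearer to another gene. The strongest region of Maml2 lies between 21.5 and 28.1, 5 regions of Notch1 have means above 13, and Rbpj has none.

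Ordered by the strongest region to which the gene itself was nearest, Maml2 stood first with 25.1 normalized tags, and its lowest library (21.5) was above the highest of Lfng (20.9). Lfng and Notch1 followed with 18.4 and 15.9 and overlapping ranges. Jag1 (9.19) was below both in every library, and its range overlapped that of Notch2 (8.92), which overlapped that of Numb (6.87). Dll4 (5.62) and Maml1 (4.67) came last, each with a range below that of the gene before it. Counting every region within 50 kb instead, the ranges of Maml2, Lfng (22.5), Notch2 (18.9) and Notch1 overlapped in turn, although Lfng was above Notch2 and Notch2 above Notch1 in every library. After them came Jag1, then Maml1 (7.29), Numb, Dll1 (6.55) and Dll4 (6.53), and the last 4 overlapped in turn.

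Longer genes more often held a region, and the 10 genes differ widely in span. Of the 5 genes with the longest spans (the top span class of 4 equal classes, 44.9 kb or more), 4 had a reproducible region inside, against 35.9% of all genes there, and 4 had one within 50 kb, against 57.7%. In the next class (17.3 to 44.9 kb) both Jag1 and Maml1 had one inside, against 13.1%, and within 50 kb, against 48.0%. In the class of 5.84 to 17.3 kb, 1 of 3 had one inside, against 7.80%, and 3 of 3 within 50 kb, against 48.2%. These shares describe genes of like span and are not a test.

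Notch1 and Lfng held many regions for their length. At least 6 reproducible regions lay inside 73 protein-coding genes, of median span 414 kb, and 0 of these were shorter than Notch1 with 45.9 kb. At least 3 lay inside 427 genes, of median span 215 kb, and 0 of these were shorter than Lfng with 8.21 kb. Maml2, with 5 regions, was longer than 70 of the 125 genes with at least 5. Numb was longer than 2260 of the 3201 genes with at least 1. Within 50 kb, 7 of the 10 genes had at least 2 regions, against 21.4% of all genes, and 4 had at least 5, against 1.83%. Inside the gene, 5 had at least 2, against 4.49%, and 2 had at least 5, against 0.578%.

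**Figure D3:**
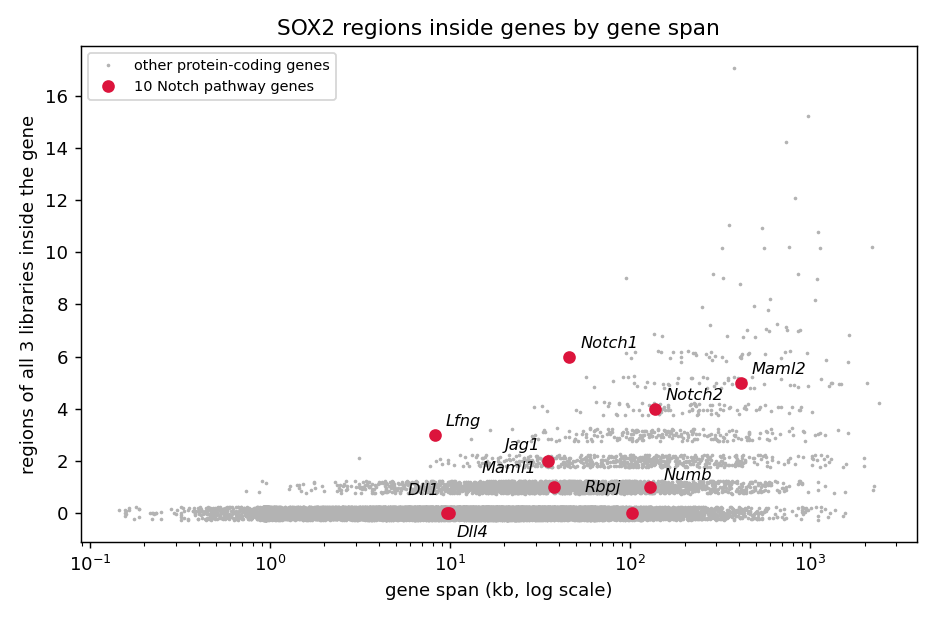
Number of reproducible regions inside each protein-coding gene (y axis, grey points spread slightly for visibility) against its span in kb (x axis, log scale), with the 10 Notch pathway genes in red. Notch1 with 6 regions and Lfng with 3 lie at the left edge of the genes with as many regions.

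The 32 reproducible regions had a median strength of 7.85 normalized tags, against 7.63 over all 9334, and 17 of the 32 were above that value. The top decile of all reproducible regions by strength (937 of 9334) held 7 of the 32. In the 24 regions nearest to the gene itself the median was 8.55. Enrichment over the input had a median of 22.0-fold, against 15.3-fold over all reproducible regions. All these folds divide by the single input, which held few tags per region. At some regions, such as the middle one of Lfng, it was at the authors' floor of 0.5 tags. Enrichment over the surrounding 10 kb had a median of 9.14-fold, against 9.08-fold. The focus ratio, a measure of how sharply the tags gather around the peak centre, had a median of 0.749, against 0.742. The 11 regions of 2 libraries were made of 5 shared by IP libraries 1 and 2, 5 by 2 and 3, and 1 by 1 and 3, against 44.7%, 26.4% and 28.9% of all such regions.

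Of 45 other Notch pathway genes, listed by role, 32 had a reproducible region inside or within 50 kb, 14 had one inside, and 22 were the nearest gene to one. These are 71.1%, 31.1% and 48.9%, against the shares of all genes given above. The median strongest region was 8.30 normalized tags over the 32, 9.19 over the 9 genes described here and 8.56 over all genes with a region. These medians count every region within 50 kb, also those nearer to another gene. Such was the strongest region of Lfng, Notch2, Maml1, Dll1 and Dll4, and of some of the 32. Nrarp, a feedback inhibitor of Notch (28.9, 30.5 and 22.2, 0.071 kb outside the gene), and Hes5, a Notch effector of stem cells (30.8, 25.9 and 21.5, inside), held more than all 10 genes described here by their means, and their ranges overlap that of Maml2. Heyl, another effector, held 13.8 ± 2.67 inside, Adam10, a protease that cuts Notch, 12.6 ± 1.83 inside, and Dner, a Notch ligand of neurons, 12.5 ± 0.902 inside.

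For the ligand Dll3 (17.9 ± 4.55) and the γ-secretase subunit Ncstn (14.4 ± 2.74) the strongest region lay nearer to another gene, inside Supt5 and 0.123 kb from Vangl2. The receptor gene Notch4 had 0 reproducible regions among 7 merged ones. The third Mastermind-like gene, Maml3, in spite of a span of 418 kb, had 0 among 7, against 5 among 15 at Maml2. Numbl, the close relative of Numb, had 0 among 2. Notch4, Maml3 and Numbl were picked as family members after their values were seen. In mean log2 strength over the 3 libraries the pathway gene closest to Maml2 was Hes5 (difference 0.05), to Notch1 Ncstn (0.14), to Jag1 Aph1a (0.01) and to Numb Rfng (0.06), which describes a level and nothing further. The region used for Rfng lay 15.9 kb from it and nearer to Dus1l, at 3.70 kb.

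**Figure D4:**
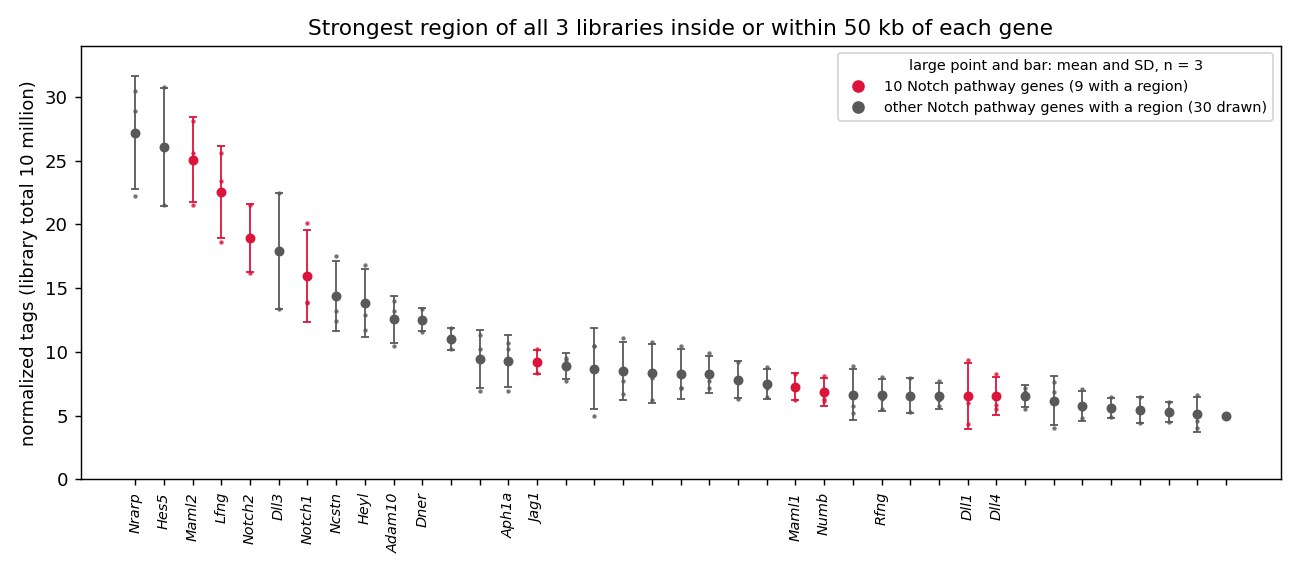
Strongest reproducible region inside or within 50 kb of Notch pathway genes that have one, in normalized tags (y axis), genes sorted by mean along the x axis, with names for those given in the text. Large points and bars are the mean and SD (n = 3), small points the libraries, red the 9 genes described here with a region and grey 30 others. Nrarp, Hes5, Maml2 and Lfng lead, and most genes lie between 5 and 10. Regions nearer to another gene are included and not marked. The point of Lfng (22.5) is a region nearer to Iqce, and that of Notch2 (18.9) a region nearer to Adam30. By regions to which the gene itself was nearest, Lfng held 18.4 and Notch2 8.92.

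At the 50 kb limit, the closest reproducible regions just outside were those of Lfng at 57.4 kb (20.0 ± 2.12 normalized tags, 13.2 kb from Grifin), of Maml1 at 80.8 kb (5.26 ± 0.585) and of Numb at 87.4 kb (24.3 ± 3.24, 0.176 kb from Acot1). The farthest inside were those of Lfng at 44.4 and 41.7 kb, given above, and of Dll4 at 37.1 kb. For the other genes the next region lay 109 to 190 kb away.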

How the data were processed

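SOX2 ChIP-seq peaks of 3 IP libraries of mouse cortex were used, and the input enters through columns of the IP tables. Per the submitters' processing notes, Bowtie 1.0.0, HOMER 4.7 and mm10 were used. Per the file headers, each IP library went through findPeaks (factor style) on its own with the input as control, and the authors kept peaks 4-fold or more above both the input and the local 10 kb at a Poisson p-value limit of 0.0001, after a false discovery rate of 0.001. The authors deposited for each peak a signal of normalized tags (library total 10000000), a focus ratio given as a fraction, a score of capped tags, fold ratios and p-values, and IP tags as whole counts in IP library 2 and scaled to the input in the others. Score and p-values were not used further. The depth was 36330529, 32492927 and 41875666 tags, and a typical peak held 22, 20 and 22 tags, which limits the precision of weak peaks.

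Peaks sharing at least 1 bp were merged in chains; a region of all 3 libraries is reproducible, and where a library has several peaks in it the strongest counts. Regions were given to each protein-coding gene of the RefSeq table (GRCm38.p6) whose span, extended by 50 kb, held their centre. Starts and strand came from the RefSeq promoter table, which held all 10 genes. Exons and a genome sequence were not used here. Tags per peak for intervals were recovered from normalized tags and depth. There is 1 condition, so no test between groups was made; genes were compared by whether their ranges over libraries overlap and, where stated, library by library. Merging and assignment were tested on simulated data. The 10 genes and the 45 other pathway genes were chosen with earlier results of these data known. All 10 are named, with up to 8 of the other genes with the strongest regions and the closest in level, and any nearer gene; further names are marked, and results of 2 of the other pathway genes are not reported here. Scripts ran in Python 3.11.15 with scipy 1.17.1, pandas 2.3.3, numpy 2.4.6 and, for plots, matplotlib 3.10.9.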

Additional observations from a re-analysis of the deposited data

How the results depend on the processing

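The count of 9 genes with a reproducible region stayed within 1.5 times under all 11 alternatives, from 6 with peaks of at least 8-fold over the input (without Dll1, Dll4, Maml1 and Rbpj) to 10 with regions of at least 2 libraries. With 10 genes in all, only a fall could pass that limit, and the count of 6 lies exactly on it. The share of all protein-coding genes moved too, from 46.6% to 32.9% at 8-fold and to 58.3% with at least 2 libraries. Leaving out 1 IP library gave 9 to 10 of 10 genes, against 50.2% to 52.1% of all protein-coding genes, and 33 to 37 regions. A region then needed peaks of both remaining libraries only. Rbpj had a region without IP library 1 or 3 and none without IP library 2. The 32 regions fell to 21 at 8-fold. The median strongest region, 9.19 normalized tags, was 8.24 with regions of at least 2 libraries, 17.4 at 8-fold and 15.9 with peaks at or above each library's median strength, where fewer genes remain, and 7.95 to 9.64 with 1 library left out. The 32 other pathway genes fell to 21 with peaks at or above that median, 21 within 10 kb and 14 inside the gene. All genes with a region fell from 10075 to 6941 with peaks at or above that median, 5712 within 10 kb, 3201 inside and 4952 by the nearest gene. Of 90 values for the strongest region of single genes, 80 moved by less than 1 SD. The others were those of Lfng, Maml1 and Notch2 when regions nearer to another gene were left out by the narrower windows or the nearest gene, and that of Jag1 at 8-fold. Genes left without a region under an alternative have no value among the 90. A region kept with the same peaks has the same strength by construction, so the 80 are no measure of stability. Joining peaks up to 100 bp apart, chosen after seeing the data, added 1 region, at Notch2 (33 in all). No paired analysis was possible because the labels give replicate numbers to the IP libraries only. Depth limits weak peaks, and the weakest at these genes held 12 tags.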
